A study of Rattus norvegicus with 6 samples.

Results

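Among the genes of the 6 libraries, those of 6 solute carrier (SLC) families that move amino acids across membranes were examined, namely all whose name begins with Slc1a, Slc3a, Slc7a, Slc36a, Slc38a or Slc43a and a number. Of 23139 listed genes, 43 had such a name. One of these, Slc7a6os, is named for its position opposite Slc7a6 and encodes no carrier, so that 42 belonged to the carriers and their subunits. Counts of transporter genes below include Slc7a6os, and counts of carriers do not. In total 24 of the 43 had at least 10 counts in 3 or more libraries, and these same 24 entered the test across all genes. The cells were primary microglia from the cortices of Wistar rats at postnatal day 1, which were shaken off mixed glial cultures and, per the labels, purified with CD11b/c beads. Every culture received 100 ng/ml lipopolysaccharide (LPS), a bacterial surface molecule that microglia recognise through Toll-like receptor signalling. Cultures of the group LPS + DMSO, here called LPS, were given the solvent DMSO, and those of the group LPS + Siponimod, here called LPS/siponimod, received 50 µM of the sphingosine-1-phosphate receptor modulator siponimod, with 3 biological replicates per group. Unstimulated cells and cells with siponimod alone were not analysed here, so that each comparison asks how siponimod changed transcripts in the presence of LPS.

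Amino acids enter cells through carriers that differ in their coupling. Sodium-coupled carriers such as SNAT2 (Slc38a2) concentrate small neutral amino acids inside the cell. Exchangers, which consist of a light subunit of the Slc7a family bound to a heavy subunit of the Slc3a family, take up amino acids such as leucine or cystine in exchange for others from inside the cell. Proton-coupled carriers of the Slc36a family and some Slc38a proteins sit on lysosomes and take part in the sensing of amino acids by the kinase complex mTORC1. Genes of several plasma membrane carriers are known targets of ATF4, a transcription factor that is translated when amino acids run short or the endoplasmic reticulum is under stress. In microglia, the cystine/glutamate exchanger xCT (Slc7a11) supplies cysteine for glutathione and releases glutamate.

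The LPS libraries held 39484979, 38301365 and 38080379 counts in the order of their replicate numbers, and the LPS/siponimod libraries 46643859, 43336006 and 38857441. A single read corresponded to between 0.0215 and 0.027 CPM, the normalised read count, which is scaled to library size and TMM factors in edgeR, and values below are given as CPM, mean ± SD of n = 3, unless named as counts, and SE is the standard error of a log2 fold change. LPS replicate 3 stood apart, since the correlation of its log2 CPM over all tested genes was 0.935 with LPS replicate 1 and 0.945 with LPS replicate 2, whereas these correlated at 0.983. Results that rest on this library are therefore given with and without it. All 14 genes of a marker list for microglia and macrophages passed the filter on low counts. Their summed level was 11540, 9261 and 6162 CPM in LPS replicates 1 to 3 and 4791, 6041 and 3452 CPM in LPS/siponimod replicates 1 to 3, with Csf1r as the most abundant gene by its mean over the libraries. Of this list Aif1 (log2 FC -1.88), Itgam (-0.87) and Cx3cr1 (-3.65) fell and none rose, while Csf1r did not pass (-1.38, edgeR adjusted p = 0.106). That was 21.4% of the list called lower and 0% called higher, beside 11.7% and 13.6% of all genes. None of these 3 calls held without replicate 3 of both groups (adjusted p = 0.0595, 0.05265 and 0.063). In a fit blocked by replicate number, 8 of the 14 were lower and 1 higher, where 16.4% and 17.7% of all genes were.

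Markers of other cell types were at low levels, apart from Cnp and Cdh5. The 10 astrocyte markers summed to 7.80, 4.18 and 10.0 CPM with LPS and to 3.08, 2.69 and 4.90 CPM with LPS/siponimod, with Aldoc as the most abundant, and Gjb6 and Ntsr2 had no count. Most reads of the oligodendrocyte list, 150, 136 and 149 CPM against 49.2, 67.8 and 60.0 CPM, belonged to Cnp, while Mog and Mag had at most 1 count in any library. The 8 neuronal markers summed to 1.73, 1.09 and 12.4 against 6.39, 9.28 and 17.4 CPM, with Tubb3 in the lead. Of the endothelial and mural list, at 157, 203 and 82.1 against 37.6, 80.3 and 26.7 CPM, Cdh5 was the most abundant by its mean, and Kdr and Rgs5 had no count. The 6 fibroblast markers summed to 10.1, 20.1 and 18.6 against 12.1, 8.02 and 8.90 CPM, with Pdgfrl as the highest in each LPS library and in LPS/siponimod replicate 2, and Dcn in LPS/siponimod replicates 1 and 3. Lymphocyte markers summed to 2.70, 1.43 and 0.673 against 0.818, 1.19 and 0.781 CPM, with Cd8a as the highest in each library and Cd3e at 0. Single markers moved with the groups. Snap25, a synaptic protein of neurons, rose from 0, 1 and 1 to 94, 153 and 81 counts, Dcn of fibroblasts from 3, 0 and 4 to 456, 49 and 178, and Mbp of oligodendrocytes from 149, 161 and 84 to 470, 397 and 652, while Aldoc and Cnp fell. Snap25 and Dcn passed the filter on low counts only through the group where they are high, so that their calls carry no weight of their own. The call of Cnp held with each library left out, whereas the largest adjusted p was 0.0623 for Mbp and 0.147 for Aldoc. Whether any of these cells had a part in the differences below was not tested.

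In the comparison of LPS/siponimod with LPS, 6 carriers and Slc7a6os rose and 5 carriers fell, where a change counts if its adjusted p does not exceed 0.05 and its size reaches 1.5-fold (edgeR quasi-likelihood test over 11977 genes with Benjamini-Hochberg adjustment). These were 29.2% and 20.8% of the 24 genes tested, beside 13.6% of all genes that were called higher and 11.7% that were called lower. The carriers with a rise were Slc7a11, Slc7a1, Slc1a4, Slc7a5, Slc38a2 and the heavy subunit gene Slc3a2, all at least 4-fold up. Those with a fall were Slc7a8, Slc43a2, Slc38a9, Slc38a10 and Slc38a6. For all 12 genes the CPM of the groups did not overlap. The 3 pairs of libraries that share a replicate number therefore had to differ the same way, which is no further support. Groups without overlap were found for 14 of the 24 genes (58.3%), and for 49.3% of all genes tested. The median log2 fold change (FC) of the 24 was 0.31 (0.13 without Slc7a6os), against -0.02 for all genes tested and -0.06 for 183 tested SLC genes of other families, of which 34 were higher and 25 lower. Single libraries moved these numbers. Without LPS replicate 1, 4 transporter genes were called higher and 2 lower (8.75% and 5.13% of all genes). Leaving out LPS replicate 2 gave 4 higher and 1 lower (3.72% and 1.44% of all genes), as did leaving out LPS/siponimod replicate 1 (4.7% and 1.52%) or LPS/siponimod replicate 3 (6.26% and 2.24%). There were 6 and 4 without LPS/siponimod replicate 2 (11.8% and 11.6% of all genes) and 8 and 6 without LPS replicate 3 (15.9% and 14.5%). With replicate 3 of both groups left out, 7 were higher and 4 lower, beside 11.1% and 8.17% of all genes. A fit blocked by replicate number called 9 higher and 6 lower, beside 17.7% and 16.4% of all genes.

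**Figure D1:**
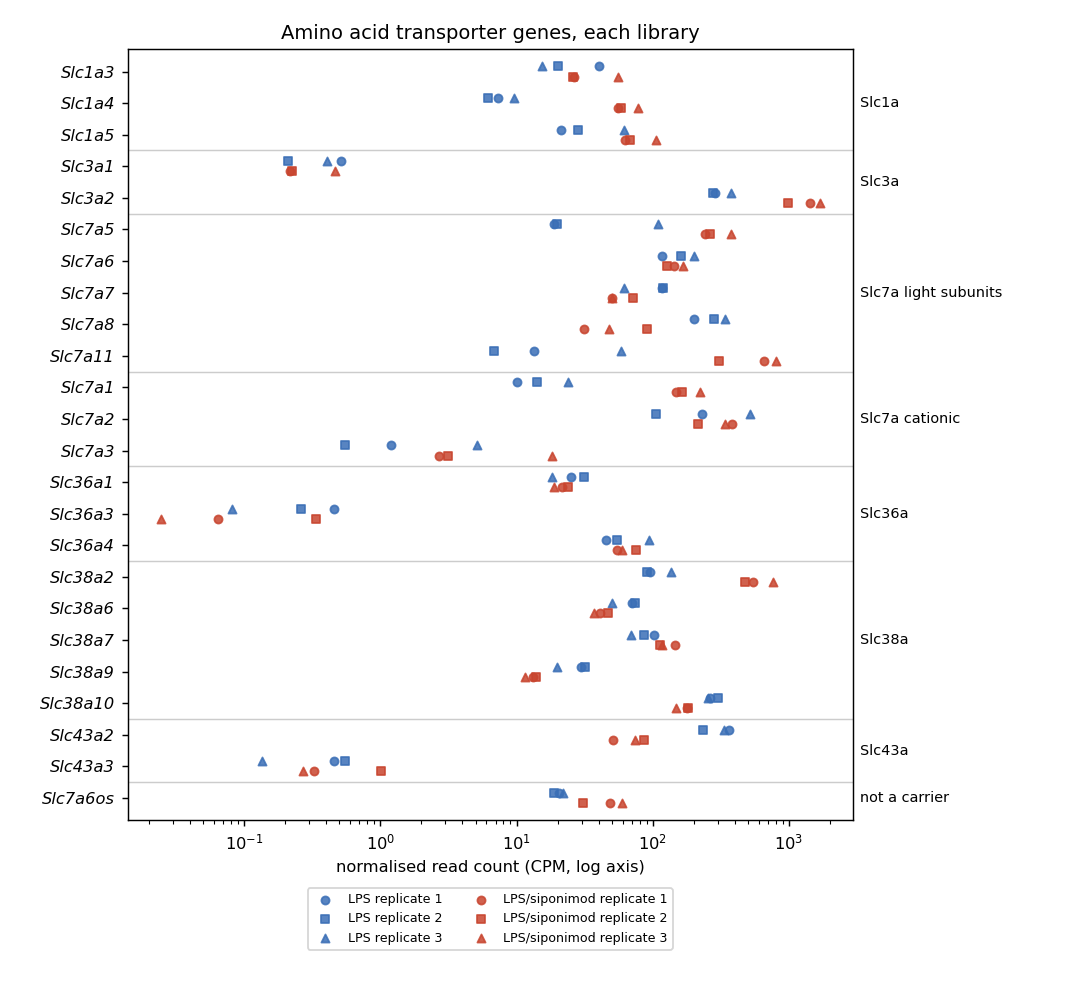
Normalised read count (CPM, log axis) of the 24 transporter genes tested, with 1 symbol per library, LPS in blue and LPS/siponimod in red. For the 12 genes past the thresholds the colours separate, as for Slc7a1 with 15.98 against 177.4 CPM, whereas Slc7a6, Slc7a2 and Slc36a4 overlap.

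To show the regulatory sequence of the carriers that rose together, the 250 bases before the start site are printed for all 6, 5′ to 3′ on the gene's strand, as given by RefSeq for the rat assembly GRCr8, which is not the build the reads were mapped to. Capitals mark matches to 3 motifs, searched on both strands in windows of 300 bases (250 before and 50 after the start), namely TGATGNAA (the core of the C/EBP-ATF response element, bound by ATF4 with a partner), TGACNNNGC (the antioxidant response element, bound by NRF2) and CACGTG (the E-box). Of the 2 windows of Slc3a2, only the one with a match is printed.
Slc7a11, chr2:136668265-136668514, minus strand: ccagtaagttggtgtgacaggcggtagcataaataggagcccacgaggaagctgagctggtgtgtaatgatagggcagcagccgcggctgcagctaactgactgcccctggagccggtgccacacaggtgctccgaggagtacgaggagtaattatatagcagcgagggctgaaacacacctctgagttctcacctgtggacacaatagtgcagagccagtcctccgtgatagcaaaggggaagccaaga
Slc7a1, chr12:11664238-11664487, plus strand: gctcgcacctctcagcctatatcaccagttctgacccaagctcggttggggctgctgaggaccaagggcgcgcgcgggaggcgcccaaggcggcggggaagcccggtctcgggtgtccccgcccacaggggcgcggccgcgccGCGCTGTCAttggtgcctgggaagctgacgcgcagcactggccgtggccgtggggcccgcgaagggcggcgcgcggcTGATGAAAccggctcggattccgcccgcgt
Slc1a4, chr14:98761563-98761812, minus strand: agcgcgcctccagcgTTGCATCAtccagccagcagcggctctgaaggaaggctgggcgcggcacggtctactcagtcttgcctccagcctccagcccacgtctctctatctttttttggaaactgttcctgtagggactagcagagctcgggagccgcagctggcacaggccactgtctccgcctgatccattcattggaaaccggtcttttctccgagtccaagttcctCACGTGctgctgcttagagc
Slc7a5, chr19:66872413-66872662, minus strand: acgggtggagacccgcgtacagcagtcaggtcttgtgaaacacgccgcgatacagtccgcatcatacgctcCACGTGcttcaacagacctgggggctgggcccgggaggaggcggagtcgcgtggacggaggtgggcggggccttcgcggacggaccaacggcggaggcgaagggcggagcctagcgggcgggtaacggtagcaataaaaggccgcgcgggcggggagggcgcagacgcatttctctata
Slc38a2, chr7:129742620-129742869, minus strand: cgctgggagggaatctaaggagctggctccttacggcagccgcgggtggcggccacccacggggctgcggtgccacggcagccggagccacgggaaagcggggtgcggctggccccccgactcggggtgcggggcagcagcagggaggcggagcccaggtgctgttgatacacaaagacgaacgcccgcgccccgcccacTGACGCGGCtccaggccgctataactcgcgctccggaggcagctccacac
Slc3a2, the second of 2 listed windows, chr1:215039671-215039920, minus strand: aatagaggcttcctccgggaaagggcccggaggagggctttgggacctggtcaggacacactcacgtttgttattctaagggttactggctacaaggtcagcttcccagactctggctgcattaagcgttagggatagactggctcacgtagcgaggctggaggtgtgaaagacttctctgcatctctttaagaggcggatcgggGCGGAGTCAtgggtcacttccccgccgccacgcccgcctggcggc

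A window was found for 33 of the 43 genes (37 windows). The response element TGATGNAA was present in Slc1a4, where it lies on the opposite strand as TTGCATCA from -235 to -228, and in Slc7a1, as TGATGAAA from -30 to -23, counted from the start site. These were 2 of 8 windows of genes that rose, with the window of Slc7a6os included. The element was in 0 of 4 windows of genes that fell and in 3.98% of all 33469 windows. The third member with a match was Slc38a1, which had too few counts to be tested. The antioxidant element was matched in Slc3a2 (from -45 to -37 of the window shown, with no motif in its other window), Slc38a2 (from -50 to -42) and Slc7a1 (from -107 to -99), which were 3 of 8 windows of genes that rose (37.5%). It was also matched in 3 of 10 windows (30%) of tested genes that did not pass, namely Slc3a1, Slc7a7 and Slc36a1, and in total in 7 of the 37 windows of the transporter genes and in 12.1% of all windows. An E-box was found in Slc1a4 and Slc7a5 among the genes that rose (25% of their windows), in Slc1a6, Slc1a7, Slc7a14 and Slc43a1 among genes with too few counts to be tested (26.7%), in Slc36a1 (at -41 and -13) and Slc38a7 (at -26), both of which encode lysosomal carriers, with 8 of the 37 windows in total and 6.42% of all windows. The window of Slc7a11 held none of the 3 motifs, and neither did those of Slc7a8, Slc43a2, Slc38a9 and Slc38a6. For Slc38a10, which also fell, no window was found. Bases outside the windows were not searched. A match is a description of letters and not of binding.

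Among the light subunits, Slc7a11 and Slc7a5 rose and Slc7a8 fell. Slc7a11, which encodes xCT, had 498, 262 and 2177 counts in LPS replicates 1, 2 and 3 and 30647, 13573 and 33051 in the LPS/siponimod replicates. It was low in LPS replicates 1 and 2, several times higher in LPS replicate 3, and highest in each LPS/siponimod library. From 26.3 ± 28.2 it rose to 590 ± 258 CPM, 22.4-fold (log2 FC 4.49 ± 0.93 SE, edgeR adjusted p = 0.0195). Without LPS replicate 3 the log2 FC was 5.87 (adjusted p = 0.011) and without LPS/siponimod replicate 2 the adjusted p was 0.0265. With any of the other 4 libraries left out it lay between 0.0591 and 0.0723, above the threshold of 0.05.

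Slc7a5, which encodes LAT1, an exchanger that brings leucine and other large neutral amino acids into the cell, had 702, 769 and 4052 counts under LPS against 11225, 11769 and 15511 under LPS/siponimod. LPS replicate 3 was again the highest of its group, and lay below all LPS/siponimod libraries. The mean rose from 49.3 ± 51.7 to 295 ± 73.4 CPM (log2 FC 2.58 ± 0.75 SE, edgeR adjusted p = 0.0474). This call was kept in only 1 of the fits with a library left out, that without LPS replicate 3 (log2 FC 3.93, adjusted p = 0.0067). Without each of the other 5 libraries the log2 FC stayed between 2.22 and 2.70. The adjusted p was then between 0.0845 and 0.1315. With replicate 3 of both groups left out, the log2 FC was 3.70 (adjusted p = 0.011). The call was also lost with no filter on low counts (adjusted p = 0.0549).

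Slc7a8 encodes LAT2, a second exchanger for neutral amino acids that binds the same heavy subunit. Its counts were 7463, 10873 and 12650 under LPS against 1450, 4064 and 1961 under LPS/siponimod. It thus moved opposite to Slc7a5, from 275 ± 69.9 to 56.7 ± 30.9 CPM (log2 FC -2.28 ± 0.43 SE, edgeR adjusted p = 0.0158). The ratio of Slc7a5 to Slc7a8 counts within a library, which was chosen after the values were seen and is given without a test, was above 1 in each LPS/siponimod library (7.74, 2.90 and 7.91) and lay at 0.0941, 0.0707 and 0.32 under LPS. Without LPS/siponimod replicate 1, LPS replicate 2 or LPS/siponimod replicate 3, the adjusted p of Slc7a8 was 0.0531, 0.0623 and 0.0644, and without both replicate 3 libraries it was 0.0687.

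The remaining light subunits with enough counts encode y+LAT2 (Slc7a6) and y+LAT1 (Slc7a7), exchangers of cationic for neutral amino acids. Slc7a6 had 4346, 6237 and 7421 counts under LPS against 6660, 5648 and 6880 under LPS/siponimod, and the groups overlapped (log2 FC -0.13 ± 0.22 SE, edgeR adjusted p = 0.687). For Slc7a7 the counts were 4339, 4572 and 2269 against 2330, 3186 and 2048, with a log2 FC of -0.79 (± 0.30 SE, adjusted p = 0.09). With the replicate number as a block Slc7a7 passed the thresholds (log2 FC -0.75, adjusted p = 0.0412), as it did without LPS replicate 3 (adjusted p = 0.0174).

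Slc3a2 encodes the heavy chain of CD98 (4F2hc), which brings LAT1, LAT2, xCT and both y+LAT proteins to the plasma membrane. Its counts were 10629, 10764 and 13967 under LPS against 66516, 43876 and 69212 under LPS/siponimod. All LPS/siponimod libraries lay above all LPS libraries, with LPS/siponimod replicate 2 as the lowest of its group. The mean went from 314 ± 53.7 to 1368 ± 357 CPM (log2 FC 2.12 ± 0.26 SE, edgeR adjusted p = 0.00705), and the call held with each library left out in turn (largest adjusted p = 0.0432, without LPS replicate 2). RefSeq lists a pseudogene of Slc3a2, and how reads common to both were assigned is not given in the sources used here. The other heavy subunit gene, Slc3a1, known from kidney and intestine, had 19, 8 and 15 counts under LPS against 10, 10 and 19 under LPS/siponimod (log2 FC -0.32 ± 0.55 SE, adjusted p = 0.686).

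**Figure D2:**
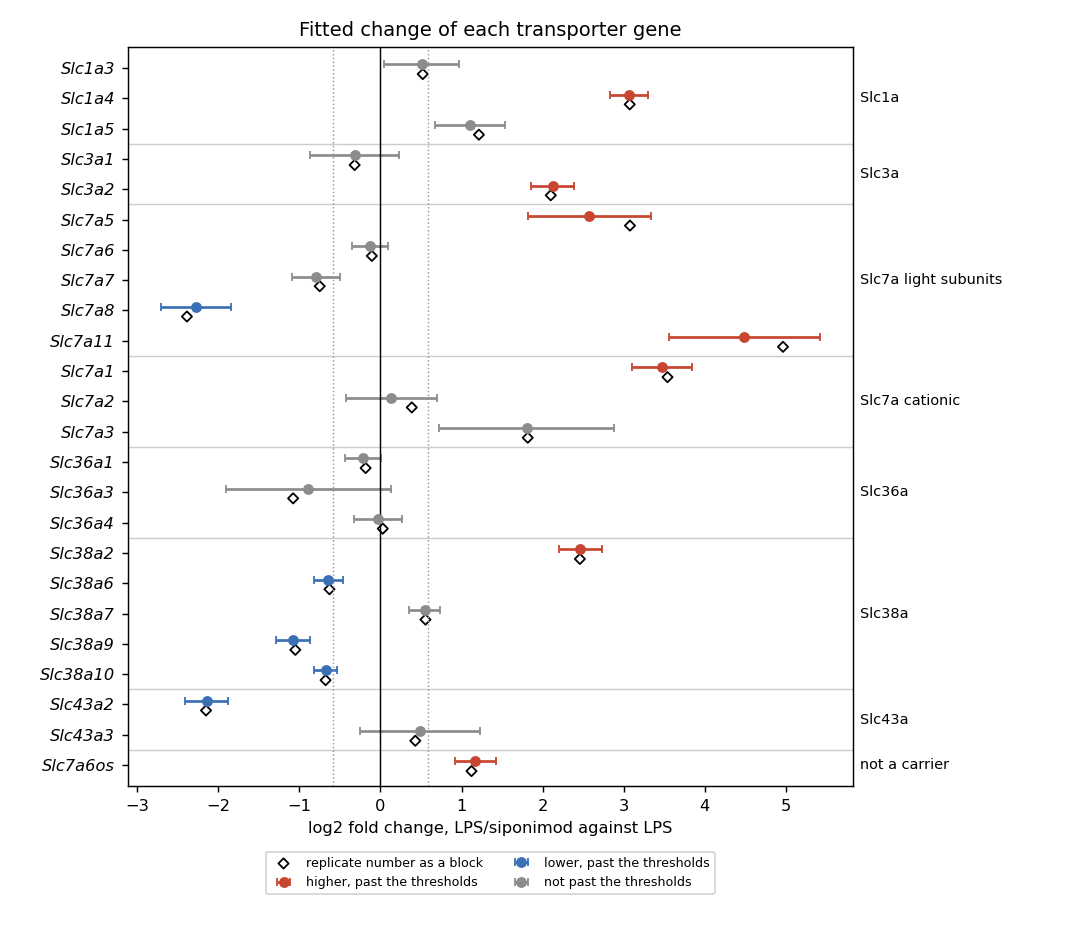
Fitted log2 fold change of LPS/siponimod against LPS for the 24 transporter genes (circles, bars give 1 standard error) and the value with the replicate number as a block (open diamonds), with dotted lines at a 1.5-fold change. Slc7a11 (4.49) and Slc7a1 (3.47) lie farthest to the right and Slc7a8 (-2.28) and Slc43a2 (-2.14) farthest to the left, and the bar of Slc7a5 is wide (standard error 0.75).

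Of the carriers of cationic amino acids, Slc7a1 rose. It encodes CAT1, the widely expressed carrier of arginine and lysine, and had 372, 546 and 881 counts under LPS against 6911, 7272 and 9042 under LPS/siponimod. The spread within each group was small beside the gap between them, and the level increased from 16.0 ± 7.01 to 177 ± 38.02 CPM (log2 FC 3.47 ± 0.37 SE, edgeR adjusted p = 0.00581). No library left out ended this call (largest adjusted p = 0.0408, without LPS replicate 2). Slc7a2 encodes CAT2, which supplies arginine to nitric oxide synthase in activated macrophages. With 8566, 4090 and 19220 counts against 17681, 9592 and 13981 it overlapped between groups (log2 FC 0.13 ± 0.56 SE, edgeR adjusted p = 0.8775). In pairs 1 and 2 it was higher with LPS/siponimod and in pair 3 lower, with log2 differences of 0.72, 1.02 and -0.60.

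Slc7a3 encodes CAT3, a carrier of cationic amino acids best known from neurons. Its counts were 44, 21 and 191 under LPS against 125, 141 and 744 under LPS/siponimod, so that both replicate 3 libraries were above the others of their group. Within the 3 pairs the log2 differences were 1.15, 2.43 and 1.81, yet the unpaired test gave a log2 FC of 1.80 ± 1.08 SE (edgeR adjusted p = 0.244). Single libraries decided this value, since the log2 FC was 0.36 without LPS/siponimod replicate 3 (adjusted p = 0.814) and 3.21 without LPS replicate 3 (adjusted p = 0.0734). Without both it was 1.76 (adjusted p = 0.0602). It passed with the replicate number as a block (log2 FC 1.82, adjusted p = 0.0126).

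The Slc1a family comprises glutamate carriers and the neutral amino acid exchangers ASCT1 and ASCT2. Slc1a4, which encodes ASCT1, a carrier of serine, alanine and threonine, had 269, 237 and 356 counts under LPS against 2598, 2617 and 3205 under LPS/siponimod. It showed the smallest standard error among the 6 carriers that rose, with an increase from 7.67 ± 1.75 to 64.2 ± 12.1 CPM (log2 FC 3.07 ± 0.23 SE, edgeR adjusted p = 0.00295). The log2 differences within pairs were 2.94, 3.24 and 3.02, and the largest adjusted p with a library left out was 0.027. Slc1a5, which encodes the glutamine carrier ASCT2, had 782, 1087 and 2279 counts under LPS against 2913, 3063 and 4363 under LPS/siponimod. The groups did not overlap in CPM, but LPS replicate 3 came close to the LPS/siponimod libraries, and the change did not pass the test (log2 FC 1.10 ± 0.43 SE, edgeR adjusted p = 0.1025). It passed with the replicate number as a block (log2 FC 1.21, adjusted p = 0.00998) and without LPS replicate 3 (log2 FC 1.69, adjusted p = 0.0169). Slc1a3, which encodes the glutamate carrier GLAST, had 1500, 775 and 574 counts against 1221, 1163 and 2285 (log2 FC 0.51 ± 0.46 SE, edgeR adjusted p = 0.433), with overlap between the groups. Its log2 FC was -0.21 without replicate 3 of both groups, 0.05 without LPS/siponimod replicate 3 and 1.03 without LPS replicate 1.

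In the Slc38a family, Slc38a2 rose while Slc38a6, Slc38a9 and Slc38a10 fell. Slc38a2, which encodes the sodium-coupled carrier SNAT2 of glutamine, alanine and other small neutral amino acids, had 3546, 3502 and 5075 counts under LPS against 25437, 21187 and 31201 under LPS/siponimod. Every LPS/siponimod library was above every LPS library by a wide margin, and the pairs differed by 2.52, 2.38 and 2.48 on the log2 scale. The mean was 108 ± 25.1 CPM with LPS and 594 ± 149 CPM with LPS/siponimod (log2 FC 2.46 ± 0.26 SE, edgeR adjusted p = 0.00595, at most 0.0408 with a library left out).

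Slc38a9 encodes a lysosomal carrier that reports arginine to mTORC1. It had 1101, 1234 and 742 counts under LPS against 616, 624 and 474 under LPS/siponimod, and fell from 27.2 ± 6.40 to 12.9 ± 1.24 CPM (log2 FC -1.07 ± 0.21 SE, edgeR adjusted p = 0.0169). Its call was kept without LPS/siponimod replicate 2 (adjusted p = 0.0348) and without LPS replicate 3 (0.0105), and the adjusted p was from 0.0569 to 0.0767 without each of the other 4 libraries. Both further members with a fall are less well characterised. Slc38a10 decreased from 272 ± 24.9 to 170 ± 18.1 CPM (log2 FC -0.68 ± 0.14 SE, edgeR adjusted p = 0.021), with counts of 9721, 11554 and 9396 against 8294, 8150 and 6124. Again the call was kept without LPS/siponimod replicate 2 (adjusted p = 0.0367) or LPS replicate 3 (0.0221), against 0.0531 to 0.0887 without each of the others and 0.058 without replicate 3 of both groups.

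Slc38a6 counts were 2625, 2857 and 1873 under LPS against 1900, 2106 and 1521 under LPS/siponimod, a small difference of 65.1 ± 12.9 against 41.7 ± 5.10 CPM (log2 FC -0.64 ± 0.18 SE, edgeR adjusted p = 0.0446). It stayed past the thresholds without LPS replicate 3 (adjusted p = 0.0154) and lay between 0.0606 and 0.164 without each of the other 5 libraries. The call was also lost with no filter on low counts (adjusted p = 0.06485). Slc38a7, which encodes a lysosomal exporter of glutamine and asparagine, went the other way, with 3814, 3304 and 2572 counts against 6776, 5077 and 4789. Although its groups did not overlap in CPM, it did not pass (log2 FC 0.55 ± 0.19 SE, edgeR adjusted p = 0.0735).

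In the Slc43a family of facilitated carriers, Slc43a2 fell. It encodes LAT4, which lets branched-chain amino acids, methionine and phenylalanine leave or enter the cell without coupling to sodium. Its counts were 13345, 9081 and 12482 under LPS against 2370, 3868 and 3015 under LPS/siponimod, and the level dropped from 311 ± 66.0 to 70.4 ± 18.0 CPM (log2 FC -2.14 ± 0.26 SE, edgeR adjusted p = 0.00705). Of the 5 carriers with a fall it was the one whose call held with each library left out (largest adjusted p = 0.0358). Slc43a3, a member that carries purine bases rather than amino acids, was near the limit of counting, with 17, 21 and 5 counts against 15, 45 and 11 (log2 FC 0.49 ± 0.74 SE, adjusted p = 0.644).

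None of the 3 tested proton-coupled carriers of the Slc36a family passed the thresholds. Slc36a4 had 1676, 2100 and 3496 counts under LPS against 2537, 3368 and 2436 under LPS/siponimod (log2 FC -0.03 ± 0.30 SE, edgeR adjusted p = 0.944). The direction differed between pairs. Slc36a1, which encodes the lysosomal carrier PAT1, had between 673 and 1206 counts with LPS and between 773 and 1071 with LPS/siponimod (log2 FC -0.21 ± 0.22 SE, adjusted p = 0.499). Slc36a3 had 17, 10 and 3 counts against 3, 15 and 1 (log2 FC -0.89 ± 1.02 SE, adjusted p = 0.535), and the log2 FC was -2.49 without LPS/siponimod replicate 2 and -0.25 without LPS replicate 1.

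Slc7a6os, which encodes no carrier, rose from 20.5 ± 1.55 to 46.2 ± 14.5 CPM (759, 731 and 820 counts against 2269, 1362 and 2428, log2 FC 1.17 ± 0.25 SE, edgeR adjusted p = 0.0207). In RefSeq it lies next to Slc7a6 on chromosome 19 and on the other strand, and since the use of strand in counting is not given, reads from the ends of both genes could not be told apart. Its adjusted p was 0.00758 without LPS/siponimod replicate 2, 0.0321 without LPS replicate 3 and between 0.0626 and 0.0876 without each of the other 4 libraries. Without replicate 3 of both groups it was 0.0587.

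**Figure D3:**
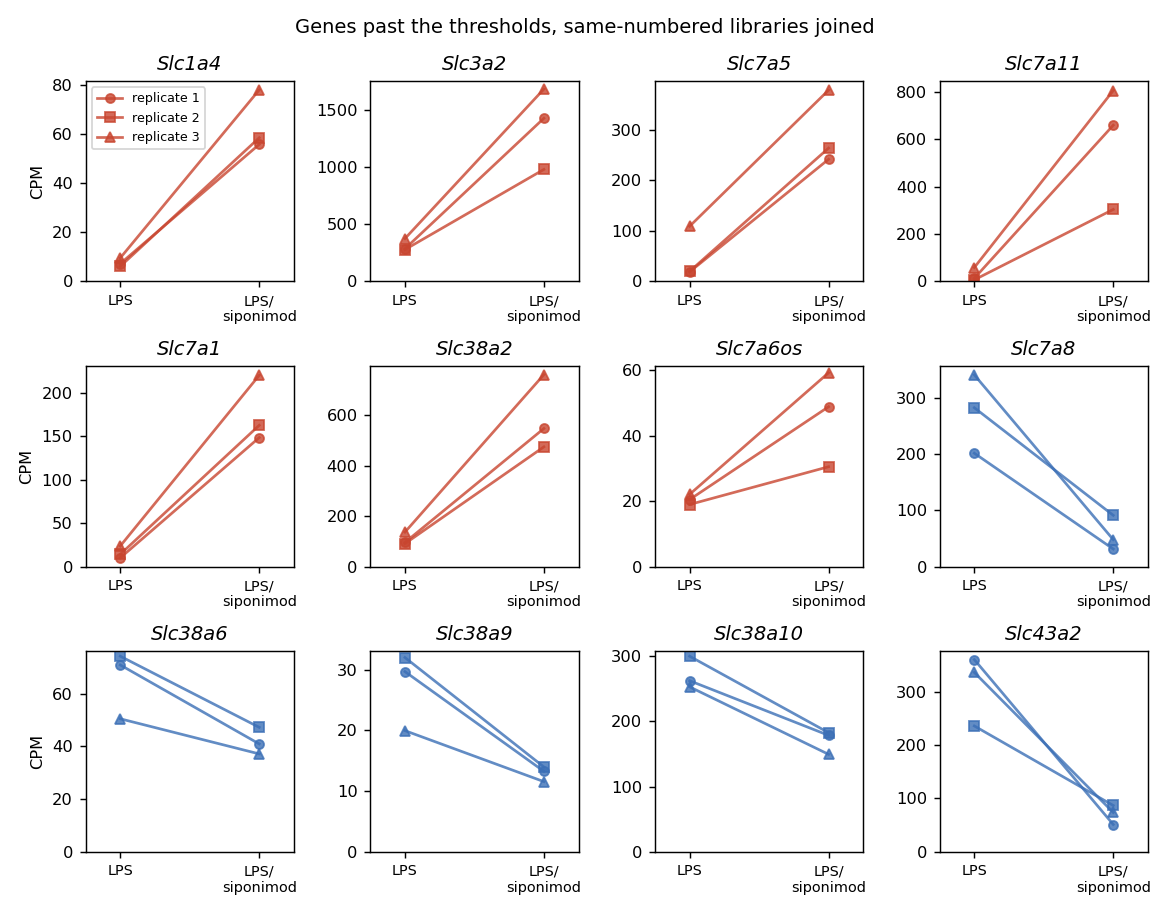
CPM of the 12 genes past the thresholds in each library, with same-numbered libraries of LPS and LPS/siponimod joined by lines and each vertical axis starting at 0. All lines of the 7 genes in red rise and all lines of the 5 genes in blue fall, as groups without overlap require. LPS replicate 3 (triangle) starts above the other LPS libraries for all 7 genes in red, by the largest ratio for Slc7a5 and Slc7a11.

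Summed over the 42 carriers, the level was 2060, 1950 and 2763 CPM in LPS replicates 1 to 3 and 4289, 3394 and 5194 CPM in LPS/siponimod replicates 1 to 3. The 6 carriers with a rise made up 21.0%, 21.4% and 25.8% of this sum under LPS, against 71.9%, 66.2% and 75.7% under LPS/siponimod, with Slc3a2 as the highest of all carriers in each LPS/siponimod library. In LPS replicates 1, 2 and 3 the highest was Slc43a2, Slc38a10 and Slc7a2, respectively. The 5 carriers with a fall made up 44.9%, 47.4% and 36.2% under LPS, against 7.34%, 12.4% and 6.15% under LPS/siponimod. Since these groups were formed by the test itself, the shares are descriptive. The RNA of a whole culture was measured, and fewer cells of a kind and less RNA per cell cannot be told apart.

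Of the 43 genes, 19 did not reach 10 counts in 3 libraries, and 8 of these had no count in any library, namely Slc1a7, Slc7a9, Slc7a13, Slc7a14, Slc36a2, Slc38a4, Slc38a5 and Slc38a11. At this depth a count of 0 allows up to 3 counts, so that these were not detectable rather than absent. A further 6, which were Slc1a6, Slc7a4, Slc7a10, Slc7a12, Slc7a15 and Slc43a1, had at most 8 counts in any library. Slc38a3 had 4, 2 and 16 counts under LPS against 0, 3 and 1 under LPS/siponimod, and Slc38a8 had 0, 1 and 1 against 3, 3 and 10.

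The remaining 3 genes below this limit were seen mainly in the replicate 3 libraries. Slc1a1 (neuronal glutamate carrier EAAC1) had 7, 2 and 91 counts in LPS replicates 1, 2 and 3 and 3, 2 and 40 in the LPS/siponimod replicates. For Slc1a2 (glutamate carrier GLT-1, known from astrocytes) these were 5, 3 and 82 against 4, 4 and 22. For Slc38a1 (SNAT1, a glutamine carrier of neurons and other cells) there were 2, 1 and 73 against 7, 4 and 240. The same 2 libraries held reads of other neural cell types. Olig1, a transcription factor of the oligodendrocyte lineage, had 1, 5 and 515 counts under LPS against 2, 3 and 17 under LPS/siponimod, and the receptor Pdgfra of oligodendrocyte precursors had 5, 4 and 284 against 1, 4 and 81. Sox9, a factor of glial progenitors and astrocytes, had 0, 5 and 99 against 3, 1 and 59, and Map2, a neuronal protein, 0, 3 and 162 against 1, 1 and 115. Gfap, the filament protein of astrocytes, had 1, 2 and 88 counts under LPS against 0, 0 and 1 under LPS/siponimod. Not every marker followed. Mbp was lowest in LPS replicate 3 among the LPS libraries, though highest in LPS/siponimod replicate 3 within its group. The oligodendrocyte list, led by Cnp, summed to 150, 136 and 149 CPM under LPS against 49.2, 67.8 and 60.0 CPM under LPS/siponimod. The part of other neural cells in the values of these carriers was not tested.

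**Figure D4:**
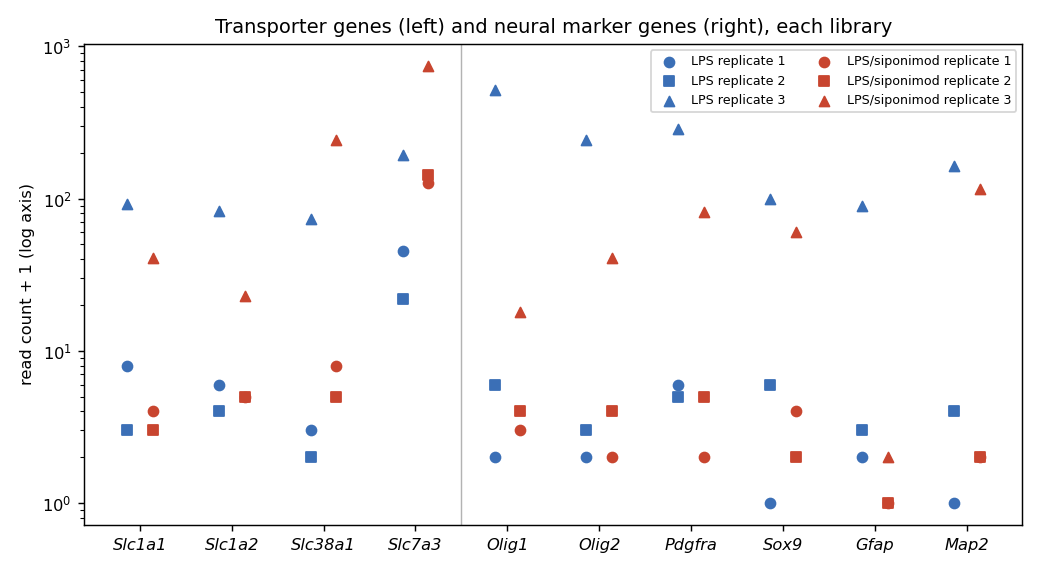
Read counts plus 1 (log axis) in each library for 4 transporter genes (left of the line) and 6 marker genes of other neural cells (right), LPS in blue and LPS/siponimod in red. The triangles of replicate 3 lie above the other libraries of their group for all 10 genes, with the LPS/siponimod triangle of Gfap at 1 count. Markers without this pattern, such as Mbp, are not shown.

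Lists of related genes were compared with the same fit, and each count stands beside 13.6% called higher and 11.7% called lower among all genes. Of 19 tested amino acid carriers in other SLC families and related proteins, 7 rose and 1 fell. The 7 include Slc6a13, a GABA carrier, which had 0, 0 and 2 counts under LPS against 22, 23 and 21 under LPS/siponimod, so that it passed the filter on low counts only through the group where it is high. Its call was kept without LPS replicate 3 and in none of the other 5 fits with a library left out. Slc6a12, which carries betaine and GABA, went from 256 ± 34.2 to 1315 ± 230 CPM (log2 FC 2.36 ± 0.21 SE, edgeR adjusted p = 0.00416). Ctns, which encodes the lysosomal cystine exporter cystinosin, rose from 16.5 ± 3.61 to 56.1 ± 9.74 CPM (log2 FC 1.77, adjusted p = 0.00724), and Slc25a44, the mitochondrial carrier of branched-chain amino acids, from 39.1 ± 3.53 to 94.4 ± 20.8 CPM (log2 FC 1.27, adjusted p = 0.00967, and 0.052 without LPS replicate 2). The glycine carrier gene Slc6a9, named here after its values were seen, had 308, 44 and 72 counts under LPS against 8459, 3331 and 2889 under LPS/siponimod (log2 FC 4.84 ± 0.89 SE, adjusted p = 0.0146). Its call was lost without LPS/siponimod replicate 1 (log2 FC 4.25, adjusted p = 0.0572) and without LPS replicate 2 (4.41, 0.0555), and the log2 FC was 6.16 without LPS replicate 1. The gene with a fall was Slc25a12, a mitochondrial exchanger of aspartate and glutamate (log2 FC -1.62, adjusted p = 0.0489), whose call was kept without LPS/siponimod replicate 2 (log2 FC -2.30, adjusted p = 0.0115) but in none of the other 5 fits with a library left out (adjusted p from 0.0511 to 0.173).

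Among 35 tested genes of amino acid sensing by mTORC1 and the kinase GCN2, 7 rose and 1 fell. Fnip2 (log2 FC 1.89 ± 0.27 SE, edgeR adjusted p = 0.00875) and Flcn (1.30 ± 0.21 SE, adjusted p = 0.0112) encode partners that act on the RagC and RagD proteins at the lysosome. Impact, which encodes an inhibitor of GCN2 activation, had a log2 FC of 1.38 (± 0.24 SE, adjusted p = 0.0123). Sesn3, a sestrin, was the gene with a fall (log2 FC -1.74 ± 0.41 SE, adjusted p = 0.0269), whereas its relative Sesn2, named beyond the rule, rose (log2 FC 0.95, adjusted p = 0.0123). A further sestrin, Sesn1, did not pass (log2 FC -1.18, adjusted p = 0.0679), but was lower without replicate 3 of both groups (-1.47, 0.0295). The call of Sesn3 was kept without LPS/siponimod replicate 2 (log2 FC -2.34, adjusted p = 0.00628) and without LPS replicate 3 (0.0318), with an adjusted p between 0.0754 and 0.0932 without each of the other 4 libraries and of 0.0781 without replicate 3 of both groups. The calls of Flcn, Impact and Sesn2 were lost without LPS/siponimod replicate 1 (adjusted p = 0.0513, 0.0561 and 0.0619) and without LPS replicate 2 (0.0612, 0.0614 and 0.0654), and that of Impact also without replicate 3 of both groups (0.0562).

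For 17 tested genes of glutathione and cystine use, 6 rose and 3 fell. Chac1, which degrades glutathione, had 157, 103 and 102 counts under LPS against 1440, 1718 and 1822 under LPS/siponimod (log2 FC 3.56 ± 0.26 SE, edgeR adjusted p = 0.00295). Abcc1, an exporter of glutathione conjugates, and Gclm, the modifier subunit of the rate-limiting enzyme of glutathione synthesis, had log2 FCs of 0.72 (adjusted p = 0.00955) and 0.82 (0.0361). The catalytic subunit gene Gclc did not pass (log2 FC -0.19, adjusted p = 0.549). The genes with a fall were Ggt7 (log2 FC -1.49, adjusted p = 0.012), the dipeptidase gene Cndp2 (-1.24, 0.0136) and the peroxidase gene Gpx1 (-1.27, 0.0247). The call of Chac1 held with each library left out and that of Abcc1 with all but LPS replicate 2 (adjusted p = 0.0502). Gclm kept its call without LPS replicate 3 (adjusted p = 0.0211) and had an adjusted p from 0.0647 to 0.112 without each of the other 5 libraries. Ggt7, Cndp2 and Gpx1 lost theirs without LPS/siponimod replicate 1 (0.0596, 0.0723 and 0.107) and LPS/siponimod replicate 3 (0.0508, 0.053 and 0.0861), Cndp2 and Gpx1 also without LPS replicate 2 (0.0612 and 0.083) and Gpx1 without LPS replicate 1 (0.0679). Without replicate 3 of both groups Cndp2 and Gpx1 were at 0.0533 and 0.0595.

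Of 14 tested enzymes of glutamine, glutamate and aspartate, 3 rose and 2 fell (2 and 4 with the replicate number as a block, where 17.7% and 16.4% of all genes passed). Aldh18a1, which makes the precursor of proline from glutamate, had a log2 FC of 1.40 (± 0.16 SE, edgeR adjusted p = 0.00647), Gpt2, the mitochondrial alanine aminotransferase, of 2.24 (± 0.38 SE, 0.0118) and Asl, which forms arginine from argininosuccinate, of 0.65 (0.0403). Asl did not pass with the block (adjusted p = 0.0574) or without replicate 3 of both groups (0.0506), and kept its call without LPS replicate 3 (0.0363) but in none of the other 5 fits with a library left out (0.0661 to 0.125). Both aspartate aminotransferases fell, with log2 FCs of -1.48 for the cytosolic Got1 (adjusted p = 0.0142) and -0.99 for the mitochondrial Got2 (0.0189). Both calls were lost without LPS/siponimod replicate 1 (0.0721 and 0.0892), LPS replicate 2 (0.0601 and 0.0789) and LPS/siponimod replicate 3 (0.0584 and 0.065), and that of Got2 without LPS replicate 1 (0.0572). The most abundant gene of the list by its mean, the glutamine synthetase gene Glul, had 193608, 118132 and 63609 counts under LPS against 39795, 71943 and 37562 under LPS/siponimod without overlap in CPM. It did not pass the test (log2 FC -1.56 ± 0.47 SE, adjusted p = 0.0519), but did so with the replicate number as a block (adjusted p = 0.0471) and without LPS replicate 3 (log2 FC -1.88, adjusted p = 0.0233). Without replicate 3 of both groups the adjusted p was 0.0675.

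In the breakdown of branched-chain amino acids, 7 of 21 tested genes (33.3%) fell and 0 rose. By the smallest p-values these were led by Aldh6a1 of valine breakdown (log2 FC -0.95 ± 0.21 SE, edgeR adjusted p = 0.0231), Dbt, a subunit of the branched-chain keto acid dehydrogenase (-1.03 ± 0.23 SE, 0.0237), and Pccb of propionyl-CoA carboxylase (-1.07 ± 0.24 SE, 0.0247). The first enzyme of the pathway, the transaminase gene Bcat1, was the most abundant by its mean and did not pass, with 9265, 7527 and 22378 counts against 34764, 27071 and 26405 (log2 FC 0.93 ± 0.43 SE, adjusted p = 0.149). It passed without LPS replicate 3 (log2 FC 1.58, adjusted p = 0.0122) and without replicate 3 of both groups (1.61, 0.0334). None of the 7 calls held in every fit with a library left out, and the adjusted p of Aldh6a1, Dbt and Pccb reached 0.093, 0.0998 and 0.102 without LPS/siponimod replicate 1.

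**Figure D5:**
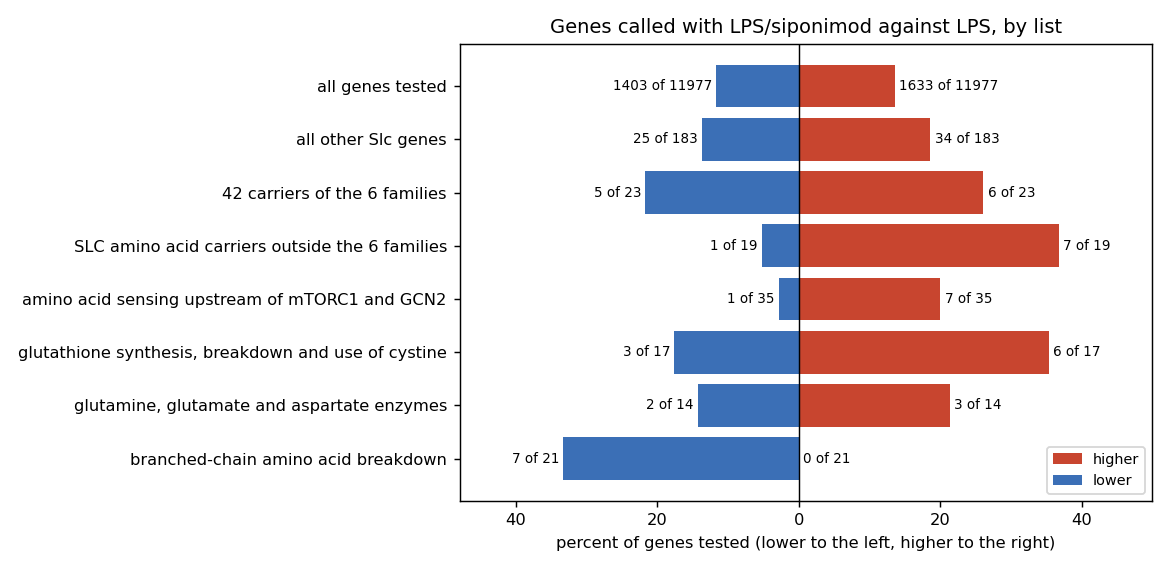
Share of tested genes past the thresholds (percent), higher with LPS/siponimod to the right in red and lower to the left in blue, for all genes, other SLC genes, the 42 carriers of the 6 families and 5 related lists, with counts beside the bars. The carriers had 6 of 23 higher and 5 of 23 lower, and branched-chain breakdown 0 higher and 7 of 21 lower.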

How the data were processed

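PolyA-selected mRNA was sequenced as single-end reads. Per the file headers and the study's methods, the authors trimmed reads, mapped them in the CLC Genomics Workbench to mRatBN7.2 and deposited raw read counts by gene, 1 table a library and not normalised (bcl2fastq version 2.20.0.422, per the submitters' processing notes). The handling of strand and of reads matching several genes is not given in the sources used here. In 1 library, 1 row without a name held none of the counts.

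The test was run with edgeR (version 4.0.16) under R 4.3.3. The function filterByExpr (minimum count 10, minimum total 15) left 11977 of 23139 genes, scaling was TMM, and glmQLFTest compared the conditions with Benjamini-Hochberg adjustment. Thresholds were 0.05 for the adjusted p and 1.5 for the fold change. A standard error is the size of the log2 FC divided by the square root of F. Pairs were compared as log2 CPM (prior count 2). An exact permutation test of 3 against 3 libraries cannot go below p = 0.10. The study calls the 3 replicates biological, and p-values measure the spread between them. Counting limits cover counting error only.

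Same-numbered libraries deviated together from their group means (correlations over genes 0.42, 0.545 and 0.611). Both replicate 3 libraries also held reads of other neural cells, as for Map2 with 162 and 115 counts, though Gfap had 88 and 1. Beyond this, nothing in the sources used here says that the numbers mark pairs. The main fit has no block, and for the transporter genes the value with the replicate number as a block is given where it changes a call. In the related lists the block also called Slc6a6 (edgeR adjusted p = 0.0444) and Cth (0.0115) higher and Ass1 (0.0135) lower. It called 8 genes of branched-chain breakdown lower. Among the marker lists it called 2 endothelial and mural and 1 fibroblast markers lower and 2 neuronal ones higher. Of all genes, 17.7% were higher and 16.4% lower with the block. Alternatives were RLE scaling, DESeq2 (version 1.42.0), limma-voom (version 3.58.1), the likelihood ratio test, 2 other filters, the replicate block and each library left out. The fit without replicate 3 of both groups was added after seeing the data. The procedure was tested on simulated data, but the outcome is not given here and no result rests on it.

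Members, gene lists and the motifs were chosen with earlier results of these data known. Named were all members, with counts for those past the thresholds and for the most abundant of each group that was not, and up to 3 genes per direction of each related list. Gclc, Slc6a6, Slc6a9, Slc6a13, Sesn1, Sesn2, Glul, Bcat1, Cth and Ass1 and the counts of further members were added after their values were seen.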

Additional observations from a re-analysis of the deposited data

How the results depend on the processing

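With RLE scaling and with a filter of 10 counts in 3 libraries, all 24 genes kept their direction and their side of the thresholds. DESeq2 added Slc1a5 and Slc7a7, the likelihood ratio test Slc1a5, and the replicate block Slc1a5, Slc7a7 and Slc7a3. With the block 9 transporter genes were higher (8 without Slc7a6os) and 6 lower, and none of the 12 was lost. Of all 11977 genes, 2114 were higher and 1960 lower with the block. With no filter on low counts Slc7a5 and Slc38a6 were lost. The cause of these shifts was not tested. With a library left out, the number of transporter genes called ranged from 4 to 8 higher and from 1 to 6 lower, and over all genes from 469 to 1941 higher and from 182 to 1772 lower, the lowest without LPS replicate 2 and the highest without LPS replicate 3. These fits hold 1 library less. Some genes that did not pass the thresholds changed sign. Slc36a4 was at 0.0257 with limma-voom, at 0.0282 with the block, at 0.39 without replicate 3 in both groups, and from -0.21 to 0.34 with a library left out. Slc1a3 was at -0.21 without replicate 3 in both groups. With a library left out, Slc7a2 ranged from -0.24 to 0.89, Slc7a6 from -0.29 to 0.0681 and Slc43a3 from -0.37 to 0.84 (log2 FC). Low counts limited Slc3a1, Slc36a3 and Slc43a3.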
